A study of Mus musculus with 12 samples.

Results

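Antigen presentation was followed through 10 genes of the class I and class II pathways of the major histocompatibility complex (MHC) in the cervix of pregnant mice. They were the class II chains H2-Aa, H2-Ab1 and H2-Eb1, the class II loading factors H2-DMa, H2-DMb1 and Cd74, the class II transactivator Ciita, and the class I genes B2m, H2-K1 and H2-D1. Probe sets were assigned to them by gene symbol. The level of a gene is that of its brightest probe set by the 12-array mean, and probe sets annotated with several symbols were left out. Of the 10 genes, 9 had a probe set of their own, 29 probe sets in all, and 7 passed a filter that kept genes with a log2 intensity above 4 on at least 6 arrays. The whole table held 18194 genes, of which 8795 passed the same filter and were tested.

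The MPA group was 6 cervical samples from dams given medroxyprogesterone acetate (MPA), a synthetic progestin, at 1 mg per dam under the skin for 48 h. The other 6 samples came from dams given the same volume of ethanol vehicle. All were CD1 mice, an outbred stock, at gestation day 15, and the labels name no transgene or other treatment in either group. Expression was read on Affymetrix Mouse430_2 arrays after amplification of 100 ng of total RNA. Nothing in the labels ties an array to a separate dam, and p values therefore cover sample-to-sample spread that could be partly technical.

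The arrays had median intensities of 6.62 to 6.86 on the linear scale, with 8583 to 8960 genes above a log2 intensity of 4. MPA 1 and vehicle 4 stood apart for genes of the gut lining chosen after their values were seen. Zg16, a lectin of goblet cells, read 11.37 in MPA 1 and 11.78 in vehicle 4, against at most 6.28 elsewhere. Muc3, a mucin, read 9.44 in MPA 1 and 9.76 in vehicle 4, against at most 3.12 elsewhere. By the instrument records, MPA 1 and MPA 2 ran together with vehicle 5 and vehicle 6 on fluidics station 2. MPA 3 to 6 ran on station 4 and vehicle 1 to 4 on station 1, so for these arrays treatment and station cannot be told apart. Ranked by recorded time of day of the scan, MPA arrays were 6 to 11 and vehicle arrays 1 to 5 and 12.

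MHC class I molecules, a heavy chain such as H2-K1 or H2-D1 bound to beta-2 microglobulin (B2m), display peptides from inside the cell and are made by nearly all nucleated cells. MHC class II molecules pair an alpha with a beta chain, are chaperoned by the invariant chain Cd74, receive peptides with the help of H2-DM in endosomes, and are made mainly by dendritic cells, macrophages and B cells, or by other cells after interferon gamma. Ciita switches on the class II genes, acting through proteins bound at a conserved X box and Y box in their promoters. The classical class I and class II genes are among the most polymorphic of the genome, an outbred stock can carry several alleles, and some laboratory haplotypes make no H2-Ea transcript.

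Promoters of 5 of the 7 tested genes, all but H2-Ab1 and Cd74, are shown because promoter elements of these kinds are known to control class I and class II genes. RefSeq windows of 300 bases (GRCm38.p6, 250 before to 50 after the annotated start) were given for 7 of the 10 genes, and 9 windows in all could be used here. Capitals mark CCAAT or ATTGG (the Y box and its reverse complement), AGCAAC or GTTGCT (the core of the X box), an interferon response element (TTTC repeated after any 2 bases, or the reverse complement) and GGGGATTCC or GGAATCCCC (a kappaB site). All were searched on both strands, no matches overlapped, and the last motif was added after the sequences had been seen. The windows lie at chr17:34287774-34288073 on the minus strand (H2-Aa), chr17:34305617-34305916 on the plus strand (H2-Eb1), chr2:122147437-122147736 on the plus strand (B2m), chr17:34000298-34000597 on the minus strand (H2-K1, the first of its windows) and chr17:35262844-35263143 on the plus strand (H2-D1).
H2-Aa: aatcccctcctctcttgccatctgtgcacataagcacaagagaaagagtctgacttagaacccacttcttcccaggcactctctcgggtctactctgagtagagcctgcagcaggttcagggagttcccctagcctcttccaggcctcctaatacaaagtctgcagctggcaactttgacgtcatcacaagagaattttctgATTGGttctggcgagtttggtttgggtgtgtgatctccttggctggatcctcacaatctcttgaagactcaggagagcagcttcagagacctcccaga
H2-Eb1: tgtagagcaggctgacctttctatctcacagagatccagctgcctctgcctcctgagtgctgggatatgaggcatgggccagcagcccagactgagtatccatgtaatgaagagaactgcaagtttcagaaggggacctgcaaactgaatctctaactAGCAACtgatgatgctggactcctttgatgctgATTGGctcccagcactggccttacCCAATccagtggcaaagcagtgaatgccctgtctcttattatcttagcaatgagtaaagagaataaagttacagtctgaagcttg
B2m: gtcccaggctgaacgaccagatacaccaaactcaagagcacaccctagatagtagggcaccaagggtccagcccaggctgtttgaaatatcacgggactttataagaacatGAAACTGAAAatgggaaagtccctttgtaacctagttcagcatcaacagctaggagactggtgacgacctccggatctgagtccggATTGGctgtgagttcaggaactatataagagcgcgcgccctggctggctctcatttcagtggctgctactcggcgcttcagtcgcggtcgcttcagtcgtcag
H2-K1: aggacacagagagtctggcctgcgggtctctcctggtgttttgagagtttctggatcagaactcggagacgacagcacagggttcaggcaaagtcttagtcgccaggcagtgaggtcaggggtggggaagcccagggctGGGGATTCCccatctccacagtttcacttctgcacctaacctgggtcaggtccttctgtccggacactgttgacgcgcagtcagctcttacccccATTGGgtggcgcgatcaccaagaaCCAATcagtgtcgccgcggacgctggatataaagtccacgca
H2-D1: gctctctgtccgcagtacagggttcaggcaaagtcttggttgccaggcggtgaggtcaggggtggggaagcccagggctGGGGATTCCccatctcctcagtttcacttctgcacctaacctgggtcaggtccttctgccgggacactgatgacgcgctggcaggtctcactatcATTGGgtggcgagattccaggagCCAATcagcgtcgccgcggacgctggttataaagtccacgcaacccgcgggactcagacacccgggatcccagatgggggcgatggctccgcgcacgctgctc

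The Y box letters stood as ATTGG 48 bases before the annotated start in H2-Aa, 59 in H2-Eb1, 53 in B2m, 16 in H2-K1 and 76 in H2-D1. They also stood as CCAAT 35 bases before the start in H2-Eb1, 53 before it in H2-D1 and 8 past it in H2-K1. Such distances depend on the annotated start: in the other H2-K1 window the same ATTGG stood 30 bases before its start. The Y box letters were found in 8 of the 9 windows of these genes, where the H2-K1 windows overlap and hold the same sites. Of all 32851 promoter windows of the table, 37.4% held them. H2-Eb1 alone of the 9 windows also held the exact letters of the X box core, 92 bases before its start, which 14.8% of all windows held. B2m held the interferon letters as searched, 139 bases before its start (3.44% of all windows). The kappaB letters occurred 111 bases before the start in the H2-K1 window shown and 171 bases before it in H2-D1, and in 0.250% of all windows. A match describes letters and is not a measured binding site. Only the exact letters given were searched, so a window without a match can still hold a variant spelling of the element.

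By limma with Benjamini-Hochberg adjustment over all 8795 genes, 0 of the 7 antigen presentation genes tested were called at an adjusted p under 0.05, 0 higher and 0 lower in MPA. Over all genes 1 was called (0.0114%), 1 higher in MPA (0.0114%) and 0 lower (0%). At an unadjusted p under 0.05 there was 1 of the 7, H2-Eb1, against 5% of all genes, and an exact permutation test of each gene (two-sided, 6 against 6 arrays, smallest possible p = 0.00216) gave the same single gene. Of the 7 differences 5 were positive and 2 negative, with a median of 0.11 on the log2 scale, where 56.3% of all genes were positive with a median of 0.02. MPA and vehicle arrays overlapped for all 7 genes, while 0.341% of all genes showed no overlap. Over the 18 probe sets of these genes above the filter, fitted among 14959, limma called 0 (0% of all probe sets), and 1 had an unadjusted p under 0.05 (4.55% of all probe sets). Station 2 was the only one with both groups (MPA 1 and MPA 2, vehicle 5 and vehicle 6). Within it the differences were 0.05 for H2-Aa, -0.36 for H2-Ab1, 0.85 for H2-Eb1, 0.27 for Cd74, -0.20 for B2m, -0.37 for H2-K1 and 0.06 for H2-D1. A fit with the station as a block takes its difference from the same arrays, so its values are the same by design. On these few arrays signs turned for H2-Aa, H2-Ab1 and B2m. Without MPA 1 and vehicle 4 the H2-Aa difference was 0.16, that of H2-Eb1 0.68 and that of Cd74 0.18, and the part of these arrays' gut genes in the class II values was not tested. In bulk tissue, fewer cells of a type and less RNA per cell cannot be told apart.

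**Figure D1:**
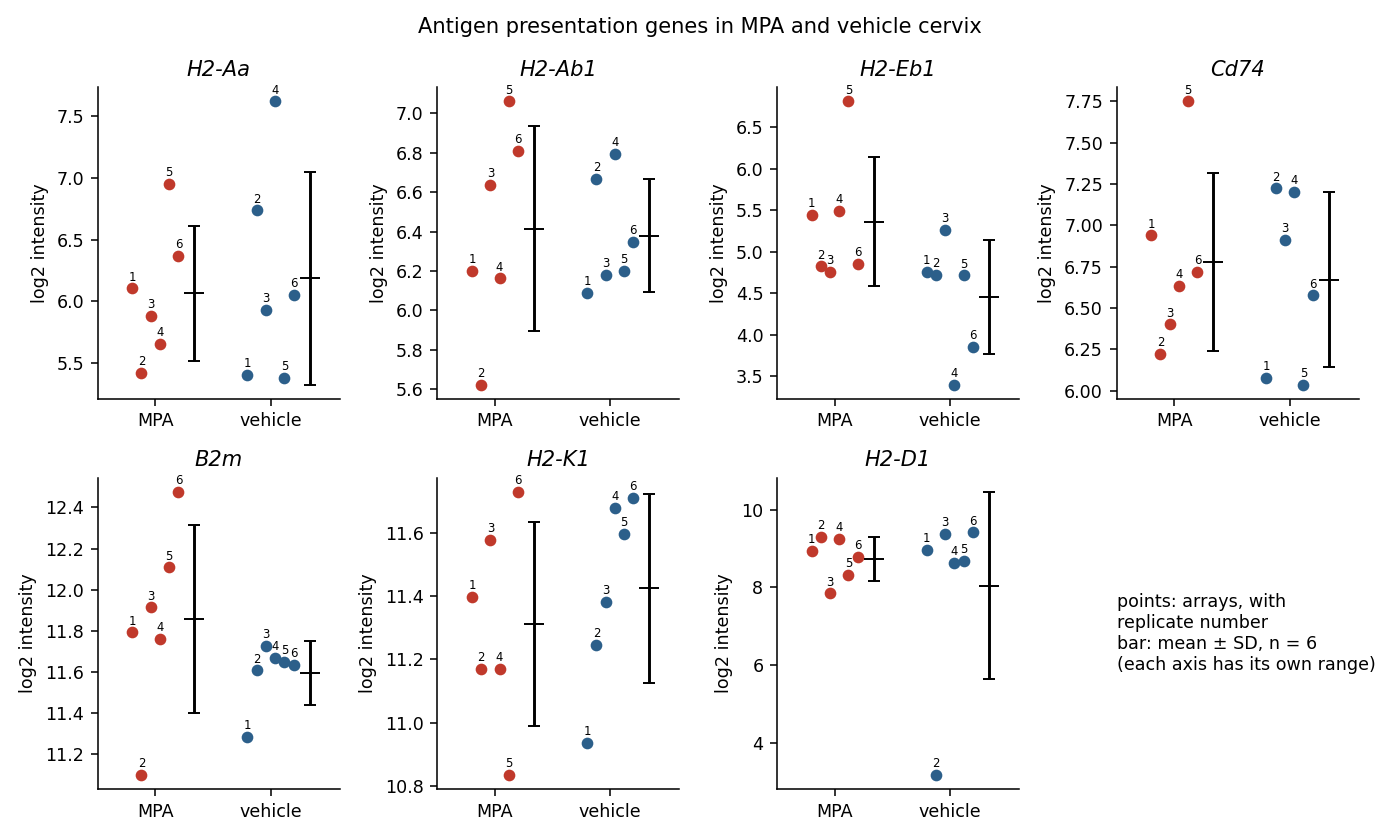
Log2 intensity of the 7 antigen presentation genes that passed the filter, with 6 MPA arrays left and 6 vehicle arrays right in each panel. Points are arrays with their replicate number and bars are mean ± SD, and the groups overlap in every panel, with vehicle 2 at 3.16 for H2-D1.

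The class II alpha chain H2-Aa had log2 intensities from 5.42 to 6.95 (median 5.99) in MPA arrays, against 5.37 to 7.62 (median 5.99) in vehicle arrays. The highest array was vehicle 4 and the next MPA 5 at 6.95, and the group means, 6.06 ± 0.55 in MPA and 6.19 ± 0.86 in vehicle (SD, n = 6 each), lay well within that spread. The difference, MPA minus vehicle, was -0.12 (SE 0.38, 95% interval -0.95 to 0.70, limma adjusted p = 1.00). Its other probe sets above the filter, 1435290_x_at and 1438858_x_at, gave 0.17 and 0.04, so the sign of this difference depended on the probe set. In vehicle 4 they read 6.30 and 4.88, inside the range of the other arrays, whereas 1452431_s_at, the probe set taken for the gene, read 7.62 there. Without vehicle 4 the H2-Aa difference was 0.16.

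H2-Ab1 encodes the beta chain that pairs with H2-Aa. Its log2 intensity ran from 5.62 to 7.06 (median 6.42) in MPA arrays, against 6.09 to 6.79 (median 6.27) in vehicle arrays. MPA 2 was the lowest and MPA 5 the highest of the 12 arrays, so that the MPA group enclosed the vehicle group. Means were 6.42 ± 0.52 in MPA and 6.38 ± 0.29 in vehicle (SD, n = 6 each), a difference of 0.04 (SE 0.23, 95% interval -0.45 to 0.53, limma adjusted p = 1.00). Its sign turned when MPA 3, 5 or 6 or vehicle 1, 3 or 5 was left out, down to -0.09 without MPA 5, and it was 0.19 without MPA 2. The other probe sets of H2-Ab1 did not pass the filter: 1425477_x_at exceeded 4 on vehicle 4 alone, at 4.27, and 1451721_a_at reached 3.45 at most.

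H2-Eb1, the beta chain of the other classical class II molecule, had the largest difference among the 7 gene values. It ran from 4.75 to 6.81 (median 5.15) in MPA arrays, against 3.40 to 5.26 (median 4.72) in vehicle arrays. All 6 MPA arrays lay above the vehicle mean, MPA 5 stood highest, and vehicle 4 (3.40) and vehicle 6 (3.85) stood lowest. The means of 5.36 ± 0.78 in MPA and 4.45 ± 0.69 in vehicle (SD, n = 6 each) gave a 1.88-fold higher level, a log2 difference of 0.91 (SE 0.39, 95% interval 0.07 to 1.75). It did not pass over all genes (limma adjusted p = 0.991, and exact permutation p = 0.0346, two-sided and unadjusted), and 308 genes had a smaller p. Leaving out each array in turn, the difference ran from 0.62 without MPA 5 to 1.07 without vehicle 3. The gene has a single probe set on the array, and it was under a log2 intensity of 4 in vehicle 4 and vehicle 6.

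H2-Ea, the alpha chain that pairs with H2-Eb1, was present in some arrays and near the lowest values in the rest. In 1422892_s_at, its brightest probe set, log2 intensity was 5.24 in MPA 3 and 6.26 in MPA 6, against 2.33 to 2.34 in the other MPA arrays. In vehicle it was 5.48 in vehicle 2, 5.10 in vehicle 3 and 4.34 in vehicle 5, against 2.33 to 2.38 in the others. High arrays therefore occurred in both groups, 2 of 6 in MPA and 3 of 6 in vehicle, and the gene failed the filter with 5 arrays above 4. MPA 5, the highest array for H2-Eb1, read 2.34 for H2-Ea, while vehicle 3, the highest vehicle array for H2-Eb1, read 5.10. The other 2 H2-Ea probe sets reached 3.43 at most.

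Cd74, the invariant chain that escorts every class II dimer, ran from 6.22 to 7.75 (median 6.68) in MPA arrays, against 6.04 to 7.22 (median 6.75) in vehicle arrays. MPA 5 was the highest of the 12 arrays, and vehicle 5 and vehicle 1 the lowest. The means of 6.78 ± 0.54 in MPA and 6.67 ± 0.53 in vehicle (SD, n = 6 each) differed by 0.11 (SE 0.28, 95% interval -0.51 to 0.72, limma adjusted p = 1.00). Its sign turned without MPA 5, to -0.09, to -0.01 without vehicle 1 and to -0.02 without vehicle 5.

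Ciita and the H2-DM genes gave no level above the filter. The 3 Ciita probe sets lay between 2.29 and 2.33 on all 12 arrays, and the 2 H2-DMa probe sets between 2.29 and 2.32, close to the lowest values of the table. H2-DMb1, the beta chain of H2-DM, is named only on probe sets that also name H2-DMb2, and these reached 3.47 at most. At these values the table cannot show whether MPA and vehicle differ, and no fold is given. Among the class II genes outside the 10, H2-Eb2, H2-Oa and H2-Ob stayed below 4 on every array, and H2-DMb2 exceeded it on vehicle 4 alone, at 4.29.

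B2m, the light chain shared by all class I molecules, had a log2 intensity of 11.10 to 12.48 (median 11.85) in MPA arrays, against 11.28 to 11.72 (median 11.64) in vehicle arrays. Apart from vehicle 1, the lowest, the vehicle arrays lay between 11.61 and 11.72, while MPA arrays were both the lowest (MPA 2) and the highest (MPA 6). The means of 11.86 ± 0.46 in MPA and 11.59 ± 0.16 in vehicle (SD, n = 6 each) differed by 0.26 (SE 0.19, 95% interval -0.14 to 0.67, limma adjusted p = 1.00), with 5 of 6 MPA arrays above the vehicle mean. The second probe set, 1452428_a_at, gave 0.19, with MPA 2 the lowest of the MPA arrays and vehicle 1 again the lowest of the vehicle arrays. Leaving out 1 array moved the B2m difference to 0.42 without MPA 2 and to 0.14 without MPA 6.

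H2-K1, a classical class I heavy chain, was between 10.83 and 11.73 (median 11.28) in MPA arrays, against 10.94 to 11.71 (median 11.49) in vehicle arrays. MPA 5 and vehicle 1 were the lowest arrays, and each group spanned nearly the whole range. The means of 11.31 ± 0.32 in MPA and 11.42 ± 0.30 in vehicle (SD, n = 6 each) differed by -0.11 (SE 0.17, 95% interval -0.48 to 0.26, limma adjusted p = 1.00). MPA 5 thus read highest for H2-Ab1, H2-Eb1 and Cd74 and lowest for H2-K1. The probe set 1427746_x_at, also of H2-K1, varied least, from 8.14 to 8.51 in MPA arrays and from 8.13 to 8.43 in vehicle arrays, with a difference of 0.03 (SE 0.09).

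**Figure D2:**
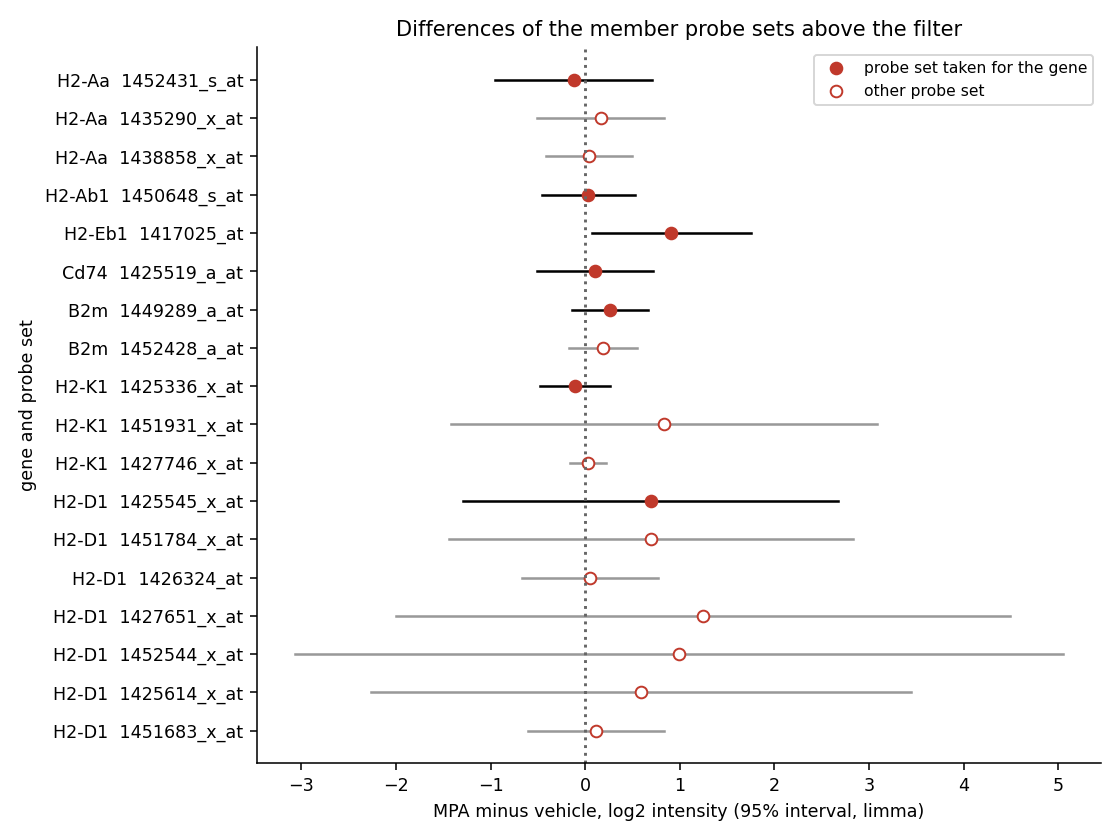
MPA minus vehicle difference in log2 intensity with its 95% interval by limma, for the 18 probe sets of these genes above the filter. Filled points are the probe sets taken for the gene and open points the others; the H2-Eb1 interval alone lies above 0 before adjustment, and the widest intervals belong to H2-D1 and H2-K1 probe sets.

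H2-D1, the other classical heavy chain, differed between arrays far more than between groups. Its 9 probe sets did not go together, although all are annotated with this gene. In the probe set taken for the gene, 1425545_x_at, MPA arrays ran from 7.84 to 9.29 (median 8.86), against 3.16 to 9.42 (median 8.83) in vehicle arrays. Vehicle 2 alone was low, at 3.16, and the other vehicle arrays lay between 8.63 and 9.42. The means were 8.73 ± 0.56 in MPA and 8.04 ± 2.41 in vehicle (SD, n = 6 each), a difference of 0.69 (SE 0.91, 95% interval -1.29 to 2.68, limma adjusted p = 1.00). That positive sign rests on vehicle 2: without it the difference was -0.28.

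The same array was low in 1451784_x_at of H2-D1, at 2.63 against 7.87 to 9.55 elsewhere, and in 1451931_x_at, annotated as H2-K1, at 2.74 against 8.29 to 9.93 elsewhere. In 1426324_at and 1451683_x_at of H2-D1 vehicle 2 was again the lowest array, at 5.74 and 2.32, with narrower gaps of 1.04 and 1.36 to the next. A second set of H2-D1 probe sets was low in other arrays. In 1452544_x_at, MPA 2 read 2.82 and MPA 4 read 2.28, against 9.07 to 9.35 in the other MPA arrays. In vehicle, arrays 1, 3 and 6 read 2.47, 2.64 and 2.69, against 10.05, 9.05 and 9.18 in arrays 2, 4 and 5. The gap between the low and the high arrays was 6.23 on the log2 scale, a 75.3-fold step with no array between.

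The probe sets 1427651_x_at and 1425614_x_at of H2-D1 were low in the same 5 arrays, with gaps of 4.35 and 3.76. Taken by these 6 probe sets, 6 arrays were high in all (MPA 1, 3, 5 and 6, vehicle 4 and 5), 5 were low in the second set only (MPA 2 and 4, vehicle 1, 3 and 6), and vehicle 2 was low in the first set only. No array was low in both. The low arrays of the second set fell in both groups, 2 of 6 in MPA and 3 of 6 in vehicle, so its H2-D1 differences of 0.59 to 1.25 had SEs of 1.32 to 1.87. Among all 45101 probe sets, 3 separated those 5 arrays from the other 7 by at least 2 on the log2 scale, and all 3 were these H2-D1 probe sets. For vehicle 2 against the other 11 arrays there were 4, of which 3 were the H2-D1 and H2-K1 probe sets named and the other was Ptprg. The splits were read from the values, so no test is given.

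Among probe sets that stayed high, levels tended to be higher where the other set was low. In 1425545_x_at the 5 arrays low in the second set read 8.97 to 9.42, against 7.84 to 8.93 in the 6 arrays high in all. The H2-K1 probe set 1451931_x_at gave 9.42 to 9.93 in those 5 arrays, against 8.29 to 9.41 in the 6. These ranges nearly touch, and in 1451784_x_at they overlapped, with 8.96 to 9.55 in the 5 arrays and 7.87 to 8.99 in the 6. Vehicle 2, low in the first set, was in turn the highest array of the second set, at 10.05 in 1452544_x_at against 9.05 to 9.35 in the 6 arrays high in all, and at 8.22 in 1425614_x_at against 7.16 to 7.72. No genotype of a dam is given in the labels.

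**Figure D3:**
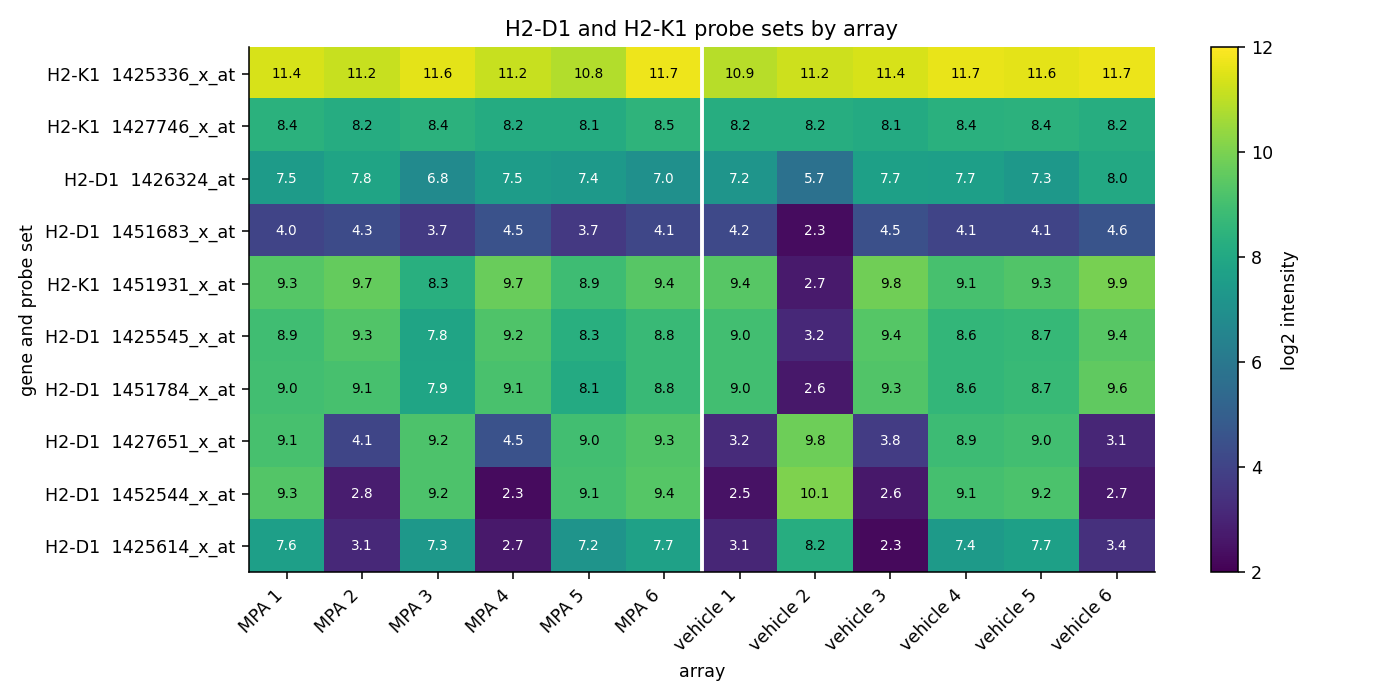
Log2 intensity of the 10 H2-D1 and H2-K1 probe sets above the filter (rows) on the 6 MPA arrays (left) and 6 vehicle arrays (right), with each value printed. Vehicle 2 is dark in the fourth to seventh rows, of which the fourth (1451683_x_at) is dim on all arrays, at 4.58 at most. MPA 2, MPA 4, vehicle 1, vehicle 3 and vehicle 6 are dark in the last 3 rows.

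Probe set names ending in x_at mark probes that may also bind related sequences, and the classical heavy chains are close in sequence. The share of signal that each H2-D1 probe set takes from H2-K1 or from other class I genes was not tested. A probe set annotated with both genes, 1424948_x_at, showed no such step, with 7.61 to 8.66 in MPA arrays and 7.49 to 8.35 in vehicle arrays.

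The other 6 genes were next compared with Cd74 over the 12 arrays, to see which varied together. H2-Aa followed Cd74 with Pearson's r = 0.85 (permutation p = 0.00052, adjusted p = 0.00312 over 6 relations) and Spearman's rho = 0.92 (permutation p = 7e-05, adjusted p = 0.00042). Without MPA 5 and vehicle 5, the arrays farthest from the Cd74 median, r was 0.83 (permutation p = 0.00131), and it was 0.91 within MPA and 0.87 within vehicle (n = 6 each). H2-Ab1 gave r = 0.71 (permutation p = 0.0107, adjusted p = 0.0321) and rho = 0.67 (permutation p = 0.0204, adjusted p = 0.0613). Its r was 0.58 without the same arrays (permutation p = 0.0788, with 10 arrays), and it was 0.69 within MPA and 0.82 within vehicle (n = 6 each). A fluidics station held 4 arrays, too few for a correlation of its own.

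For H2-Eb1 and the class I genes no relation with Cd74 passed these tests over the 12 arrays. H2-Eb1 had r = 0.37 (permutation p = 0.243, adjusted p = 0.323) and rho = 0.30 (permutation p = 0.34, adjusted p = 0.409), and r = -0.17 without MPA 5 and vehicle 5. Within groups its r was 0.94 in MPA and -0.28 in vehicle (n = 6 each), and the difference between these was not tested. Vehicle 4 was among the highest arrays for Cd74, at 7.20, and the lowest for H2-Eb1. B2m had r = 0.46 (permutation p = 0.129, adjusted p = 0.259), H2-K1 had r = -0.19 (permutation p = 0.547, adjusted p = 0.547) and H2-D1 r = -0.35 (permutation p = 0.269, adjusted p = 0.323). Their rho values were 0.41, -0.08 and -0.38 (permutation p = 0.186, 0.799 and 0.228), and r without the same arrays was 0.36, 0.41 and -0.47.

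**Figure D4:**
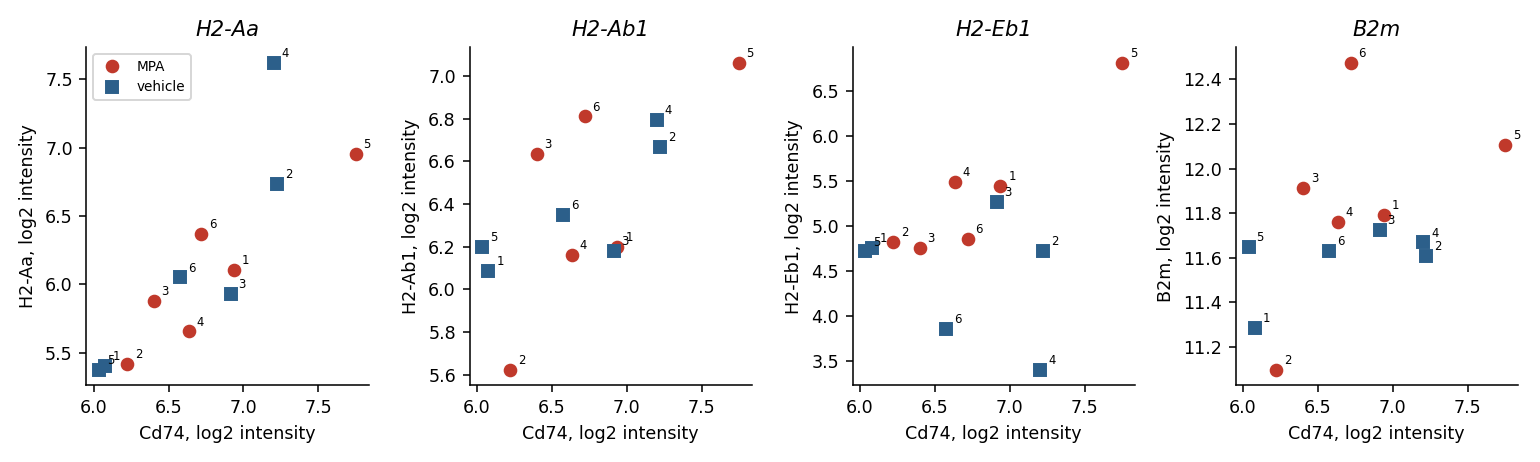
Log2 intensity of H2-Aa, H2-Ab1, H2-Eb1 and B2m (vertical axes) against that of Cd74 (horizontal axes) on 6 MPA arrays (circles) and 6 vehicle arrays (squares), numbered by replicate. H2-Aa rises with Cd74 (r = 0.85), while vehicle 4, at a Cd74 value of 7.20, has the lowest H2-Eb1 value of 3.40.

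Among the 8788 other genes tested, those most like Cd74 by Pearson's r over the 12 arrays were Xpc (0.88), Rap1gap2 (0.86), Slc4a1ap (0.86), Stk17b (0.84) and S100pbp (0.84). Those most like B2m were Ube2a (0.94), Fyb (0.92), Sumf1 (0.91), Ubxn2b (0.91) and Camk2d (0.91). The arrays share their normalization, and the top of so many genes is given as a description only.

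The other genes of the pathway were taken by role from lists. Of 60 such genes 35 were tested, and by limma 0 were called, 0 higher and 0 lower in MPA, with 3 at an unadjusted p under 0.05 (8.57%). Over all genes 0.0114% were called and 5% had an unadjusted p under 0.05. Endosomal proteases and reductase that cut and unfold proteins for class II were all positive, 7 of 7, with a median difference of 0.26 on the log2 scale, against a median of 0.02 over all genes. Cathepsin D (Ctsd) averaged 8.76 ± 0.12 in MPA and 8.54 ± 0.12 in vehicle (SD, n = 6 each), a difference of 0.22 (SE 0.08, limma adjusted p = 0.955). Legumain (Lgmn) averaged 4.95 ± 0.53 in MPA and 4.34 ± 0.40 in vehicle (SD, n = 6 each), a difference of 0.61 (SE 0.25, limma adjusted p = 0.982). Its MPA arrays overlapped those of vehicle.

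Class II transcription factors had a median difference of 0.03, 4 of 6 positive. Nfya, a subunit of the factor that binds the Y box shown above, averaged 6.57 ± 0.14 in MPA and 6.90 ± 0.27 in vehicle (SD, n = 6 each), a difference of -0.33 (SE 0.13, limma adjusted p = 0.955). Its partner Nfyc had 0.12 (SE 0.11), with the opposite sign. Genes for class II turnover and costimulation were mostly dim: Cd80, Cd86, Cd40, Cd83 and Marchf1 stayed below 4 on every array. Of the 2 tested, the ubiquitin ligase Marchf8 had -0.05 (SE 0.15) and the ligand Icosl 0.01 (SE 0.14).

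Class I peptide generation and loading had 9 genes tested, 6 positive, with a median difference of 0.06. The immunoproteasome subunits Psmb8 and Psmb10 had 0.33 (SE 0.19) and 0.13 (SE 0.09), both with a limma adjusted p = 1.00. Psmb9, also an immunoproteasome subunit, had the opposite sign, at -0.04 (SE 0.12). The peptide transporter subunit Tap1 stayed below 4 on every array, and Tap2 exceeded it on 5. Non-classical class I genes had a median of 0.19, 4 of 5 positive, with Mr1, which presents vitamin metabolites, at 0.23 (SE 0.19) and H2-M3, which presents formylated peptides, at 0.19 (SE 0.20). Of the class I transcription list 2 were tested, Irf1 with -0.21 (SE 0.21) and Irf2 with -0.09 (SE 0.20), and Nlrc5, the class I transactivator, reached 3.05 at most.

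Interferon gamma is the cytokine best known to raise both pathways. Ifng itself reached 2.37 at most, near the lowest values of the table. The 4 tested genes of its receptor and kinases were all positive, with a median difference of 0.18. The kinase Jak1 had 0.17 (SE 0.08) and the receptor chain Ifngr1 0.20 (SE 0.12), both with a limma adjusted p = 1.00.

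**Figure D5:**
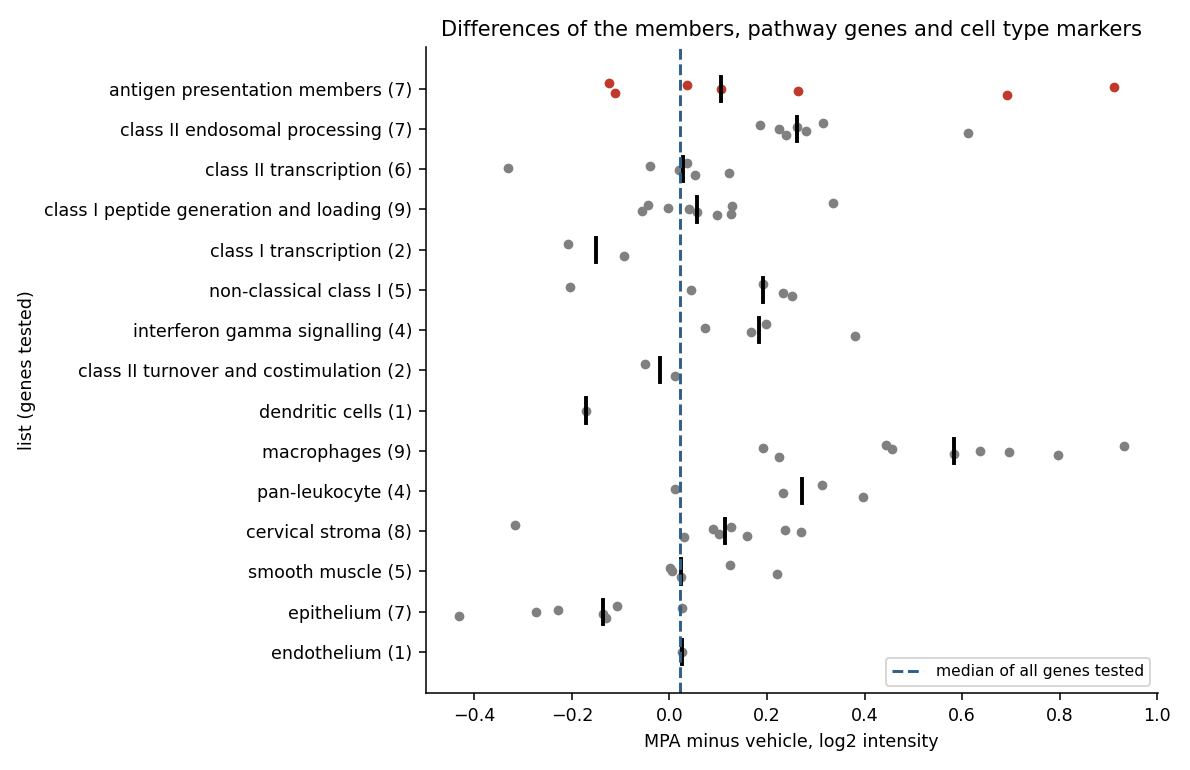
MPA minus vehicle difference in log2 intensity (horizontal axis) of the 7 antigen presentation genes, the pathway lists and the cell type marker lists (rows, with the number of genes tested). Points are genes, black bars list medians and the dashed line the median of all genes tested (0.02); the macrophage median of 0.58 lies farthest from it.

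Markers of the cells that carry class II molecules were read beside these genes. Of 11 dendritic cell markers only Fscn1 was tested, with -0.17 (SE 0.11), while Itgax, Flt3 and Xcr1 reached 2.38 at most. Fscn1 lay between 9.45 and 10.20, far above these, and the part of dendritic cells in its signal was not tested. Among the others Zbtb46 lay between 2.96 and 3.81, and Irf8 was highest in vehicle 4, at 4.00 against at most 3.60 elsewhere. T and NK cell markers (0 of 7 tested) reached 2.76 at most and B cell markers (0 of 7) 3.58. Vehicle 4 was the highest array for 5 of the 6 B cell markers measured, with Cd79a, a chain of the B cell receptor, at 3.58 against at most 2.38 elsewhere and Ms4a1 at 3.56 against at most 2.55. Of these, Pax5 and Cd22 reached only 2.41 and 2.49 in vehicle 4, near the lowest values of the table. Blk, the marker left, was highest in MPA 6, at 3.31, and read 2.48 in vehicle 4. H2-Ob, a class II gene of B cells, read 3.51 in vehicle 4 and at most 2.41 elsewhere. Vehicle 4 was also the highest array for H2-Aa, and the part of B cells in that value was not tested. Macrophage markers were measurable for 9 of 14, all 9 positive with a median difference of 0.58. Aif1 led with 0.93 (SE 0.21, limma adjusted p = 0.592), and Mpeg1 had 0.80 (SE 0.27, limma adjusted p = 0.897). The mean log2 level of those 9 ran from 5.89 to 7.55 in MPA arrays and from 6.12 to 6.68 in vehicle arrays. Adgre1, Cd68, C1qa, Fcgr1 and Cx3cr1, also macrophage markers, stayed below 4.

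The macrophage mean was lowest in MPA 2, the lowest array for B2m and H2-Ab1, and at 7.55 in both MPA 5 and MPA 6, the highest arrays for H2-Ab1 and B2m. The pan-leukocyte mean, over 4 of 5 markers, ran from 6.21 in MPA 2 to 7.94 in MPA 5 and from 6.57 to 7.56 in vehicle, where vehicle 4 was highest. Its members Laptm5 and Cd53 had differences of 0.23 (SE 0.17) and 0.40 (SE 0.31). MPA 2 was also the lowest array for the mean of stromal markers, at 8.03 against 8.86 to 10.15 in the other 11. Its mean of smooth muscle markers was the lowest too, at 10.04 against 11.08 to 12.60. MPA 5 was the highest array for both means, at 10.15 and 12.60. It was the lowest for the mean of epithelial markers, at 10.63 against 11.17 to 11.77 in the other 11. MPA 5 also read highest for H2-Ab1, H2-Eb1 and Cd74 and lowest for H2-K1. The part of these cell types in the values of the antigen presentation genes was not tested.

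The tissue label was checked against its markers. Stromal (8 of 9), smooth muscle (5 of 5) and epithelial (7 of 7) markers passed the filter, among them Pgr (-0.32, SE 0.09), Esr1 (0.13, SE 0.12), Cnn1 (0.22, SE 0.46), Acta2 (0.12, SE 0.29), Krt8 (-0.27, SE 0.15) and Krt14 (-0.43, SE 0.29), while Hoxa13 stayed below 4. Of 4 endothelial markers Tek was tested, with 0.03 (SE 0.45). The median differences were 0.11, 0.02 and -0.14 in the stromal, smooth muscle and epithelial lists, and 0 of all 35 markers tested were called by limma, against 0.0114% of all genes, with 4 at an unadjusted p under 0.05 (11.4%, against 5% of all genes).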

How the data were processed

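Cervical RNA of 12 samples, 6 MPA and 6 vehicle by their titles, had been hybridised to Affymetrix arrays. For 45101 probe sets the authors deposited intensity values, linear by their range, which come from GCRMA per the submitters' processing notes (no version given). GCRMA subtracts a background modelled on probe sequence, equalises the arrays and combines the probes of a set, which packs dim values close to the lowest ones. The planned log2 was taken here with no pseudocount. Probe sets were named by the platform annotation: 34958 had 1 symbol and 932 several. The fluidics station came from the instrument records.

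All 8795 genes passing the filter were fitted with limma 3.58.1 (lmFit, eBayes, R 4.3.3), without covariates, and p values were adjusted by Benjamini-Hochberg. Differences are MPA minus vehicle with the moderated SE. Other probe sets were fitted among 14959 above the filter. Permutations of correlations used 100000 draws. The fit was tested on simulated data. The members and gene lists were chosen with earlier results of these data known. All 10 members are named, as are up to 4 called genes of a list or, with none called, the 2 of smallest p, and the 5 genes most like Cd74 or B2m. Others are named after their values were seen. Alternatives covered the filter, probe set choice, normalization, pseudocount, weights, variance model, station, replicate number and each array left out. Figures were drawn with matplotlib 3.10.9.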

Additional observations from a re-analysis of the deposited data

Results flagged for a closer look

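Single arrays stood far from the rest of their group in 9 of 36 groups of 6 examined over the 18 probe sets, by the gap to the nearest array divided by the range of the group (above 0.625). Chance gives about 1 in 20 groups, and probe sets of 1 gene are not independent. Vehicle 2 accounted for 5 of them, low for H2-D1 at 3.16 in 1425545_x_at, 2.63 in 1451784_x_at, 5.74 in 1426324_at and 2.32 in 1451683_x_at, and for H2-K1 at 2.74 in 1451931_x_at. Vehicle 1 was low in both B2m probe sets, at 11.28 in 1449289_a_at and 10.38 in 1452428_a_at, each time as the lowest of the vehicle arrays. MPA 5 was high for H2-Eb1 at 6.81, where the next MPA array read 5.49. MPA 2 was low for H2-Aa at 3.91 in 1438858_x_at, where the next MPA array read 4.84.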

How the results depend on the processing

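None of the 26 alternative settings called a member or a pathway gene. The count over all genes, 1, was 0 without the filter, with every probe set tested, within station 2, with the replicate block, without MPA 2 and MPA 5, without MPA 1 and vehicle 4 (chosen after seeing the data) and in 11 of 12 fits that left out 1 array (0 to 1, with 1 only without vehicle 1). The replicate numbers do not pair the arrays: deviations of same-numbered arrays correlated at -0.60 to 0.05, and 0 of 6 MPA arrays matched their own number best. H2-Aa (-0.12) turned to 0.0278 with the mean of probe sets, 0.0493 with the station as a block or within station 2, 0.16 without MPA 1 and vehicle 4, and 0.17 and 0.0406 in its other probe sets. H2-Ab1 (0.04) turned to -0.36 and B2m (0.26) to -0.20 with the station as a block or within it. H2-K1 (-0.11) turned to 0.25 with the mean of probe sets, 0.0434 without MPA 2 and MPA 5, and 0.84 and 0.0315 in its other probe sets. With 1 array left out, H2-Aa ran from -0.30 to 0.16, H2-Ab1 from -0.0937 to 0.19, Cd74 from -0.0890 to 0.22 and H2-D1 from -0.28 to 0.97. The causes were not tested. H2-Eb1 stayed positive in all settings, from 0.59 with a pseudocount of 16 to 1.07, and was not kept by the stricter filter. In 173 of 199 recomputed differences the sign was kept. Part of this count was fixed beforehand, because some settings change the p value and leave the difference as it was. These were the filters, the fit of every probe set, the variance model, the replicate block and the exact permutation test. Ciita, H2-DMa and H2-DMb1 are limited by signal near the lowest values of the table.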

Other observations

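Among class I probe sets annotated with several genes, which enter no comparison, 1449875_s_at (H2-T9, H2-T22 and H2-T10) read 6.48 in MPA 2 and 6.27 in MPA 4, against 7.81 to 8.34 in the other MPA arrays. In vehicle it read 6.28 in vehicle 1 and 6.86 in vehicle 6, against 7.81 to 8.42 in the others. The low arrays were 4 of the 5 that were low in the second set of H2-D1 probe sets, and vehicle 3, the remaining one, read 7.85. The probe set 1449556_at (H2-T23 and H2-T-ps) read 6.98 and 6.09 in MPA 2 and MPA 4 and 5.70 and 6.32 in vehicle 1 and vehicle 6, the lowest arrays of their groups, against 8.05 in vehicle 3. Its mean was 7.52 ± 0.84 in MPA and 7.58 ± 1.25 in vehicle (SD, n = 6 each), so the arrays within a group differed by more than the groups did. In 1447260_at (Gm38417, LOC547349 and H2-Bl) vehicle 2 was the lowest array, at 3.98, against 4.69 to 6.11 in MPA arrays and 4.70 to 5.96 in the other vehicle arrays. These probe sets were chosen after their values were seen.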
